A study of Mus musculus with 9 samples.

Results

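The proteasome genes described here were the genes of the array whose annotation symbol starts with Psma, Psmb, Psmc, Psmd or Psme followed by a number, without the interferon-inducible catalytic subunits Psmb8, Psmb9 and Psmb10. The rule found 42 of the 19937 genes with a probe set of their own. It used names and no measured values, but the members were chosen with earlier results of these data known. Of the 42, 40 encode proteasome subunits, assembly chaperones or activators. The other 2 match the prefix but are no subunits: Psmc3ip encodes a homologous recombination protein and Psme3ip1 a protein that binds the activator encoded by Psme3. They are counted under the rule and shown apart. A filter on dim genes, a mean log2 value of at least 7.24 over the 9 arrays, was passed by 40 of the 42. Psma8, the testis form of an alpha subunit, ran from 6.12 to 6.36 and Psmb11, the thymus form of a catalytic subunit, from 6.70 to 6.88, and both failed it. Of the 40 tested genes, 38 encode subunits, chaperones or activators.

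Mouse embryonic fibroblasts of 3 genotypes were compared on 3 Affymetrix arrays each. The CK fibroblasts carry p27CK, a form of the cell cycle inhibitor p27 that in published work no longer binds cyclins and their kinases; the KO fibroblasts are labelled as lacking p27, which Cdkn1b encodes; the WT fibroblasts are labelled wild type. All were grown in 10% serum and then kept without serum for 72 h, so every group, WT included, was serum-starved. The labels give no strain, passage, embryo or litter, and the shared extraction protocol names the mutant mice only as delta51. Nothing states that replicate arrays stem from separate cultures or embryos, so the p-values below reflect array-to-array spread that may be technical only.

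The proteasome degrades proteins that carry ubiquitin chains, p27 among them. Its 20S core is a barrel of alpha rings, which form the gate, around beta rings, which hold the proteolytic sites. The 19S regulator has a base, whose ATPases unfold the substrate, and a lid, which removes ubiquitin, while separate activators can cap the core in its place.

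Cdkn1b was 10.99, 11.14 and 11.16 log2 units on the CK arrays, 7.44, 7.25 and 7.45 on the KO arrays and 11.42, 11.50 and 11.47 on the WT arrays. The KO arrays were far below both other genotypes, the direction that the KO label names. The deposited values are log2 expression values per probe set, and RMA normalization brings all arrays to nearly the same distribution. The median over all genes tested differed from the WT mean by -0.02 to 0.03 on single arrays. The arrays measure bulk RNA, in which fewer cells of a type and less RNA per cell cannot be told apart. All 11 fibroblast markers passed the filter, and their summed level was 16.26 to 16.32 in CK, 16.09 to 16.16 in KO and 16.37 to 16.45 in WT (log2 of the sum). In KO relative to WT 7 of the 11 fell and 1 rose, or 63.6% and 9.1%, against 24.6% and 26.6% of all genes tested. In CK relative to WT 4 fell and 2 rose, or 36.4% and 18.2%, against 32.1% and 30.7%. In CK relative to KO 7 rose and 2 fell, or 63.6% and 18.2%, against 29.5% and 32.7%. Thy1, a surface marker of fibroblasts, had the largest fall in KO, at 6.85 to 7.33 against 11.62 to 11.95 in WT. All 8 cartilage markers were tested, and their sum was 11.37 to 11.45 in CK, 14.98 to 15.20 in KO and 13.77 to 13.81 in WT. Relative to WT the low CK sum rests mostly on Cnmd, at 7.30 in CK, 13.85 in KO and 13.33 in WT on average. In CK relative to WT 3 of the 8 fell, Cnmd, Sox9 and Col2a1, and 5 were not called (median -0.05). The falls are 37.5%, against 32.1% of all genes tested. All 8 rose in KO relative to WT, against 26.6% of all genes. All 8 were lower in CK than in KO (median -2.44), against 32.7% of all genes. There Matn1 differed by -5.56 and Col2a1 by -3.63. The filter was passed by 2 of 7 macrophage, 2 of 6 endothelial, 2 of 6 epithelial, 2 of 6 skeletal muscle and 1 of 5 neural markers. The macrophage sum was 9.88 to 9.98 in CK, 10.01 to 10.23 in KO and 10.97 to 11.09 in WT, and the defining markers Ptprc, Csf1r and Adgre1 were below the filter. Its 2 tested genes went opposite ways, with Cd68 at 8.59 in CK, 7.99 in KO and 10.64 in WT and Lyz2 at 7.59 in CK, 8.83 in KO and 6.90 in WT. The endothelial sum was 9.20 to 9.25 in CK, 9.21 to 9.24 in KO and 9.84 to 10.00 in WT. The neural sum was 10.45 to 10.87 in CK, 9.06 to 9.18 in KO and 10.77 to 10.95 in WT. Within it Map2 averaged 9.35 in CK, 7.63 in KO and 10.57 in WT, while Nes, whose mean was below the filter, was 9.09 to 9.80 in CK, 5.94 to 6.08 in KO and 5.94 to 6.25 in WT. Over all 9 arrays the epithelial sum ran from 9.47 to 9.70 and the muscle sum from 9.85 to 10.01.

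Most proteasome genes were higher in CK than in both other genotypes. With limma and Benjamini-Hochberg adjusted p under 0.05 over all 11962 genes tested, 31 of the 40 rose and 3 fell in CK relative to WT, and 6 were not called. These are 77.5% and 7.5% of the proteasome genes, against 30.7% higher and 32.1% lower among all genes tested, of which 62.9% were called. The median log2 difference from WT was 0.32 over the 40 and -0.01 over all genes tested. Relative to KO, 33 of the 40 rose and 2 fell in CK, with a median of 0.45 against -0.02 over all genes. Here 29.5% of all genes were called higher and 32.7% lower, 62.2% in sum. The comparisons of CK with WT and of CK with KO share the CK arrays and are given side by side only. All 3 CK arrays lay above all 3 WT arrays in 30 of the 40 genes and below them in 3, against 33% and 34.3% of all genes tested. They lay above all 3 KO arrays in 32 and below them in 2, against 31.7% and 35.8%. In 30 genes they lay above all 6 other arrays, a count for which no share over all genes was computed.

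Between KO and WT fewer of these genes passed the test, and more of them fell than rose. This comparison shares its WT arrays with that of CK and WT and its KO arrays with that of CK and KO. In KO, 2 of the 40 rose and 10 fell relative to WT, and 28 were not called. These are 5% and 25% of the proteasome genes, against 26.6% higher and 24.6% lower among all genes, of which 51.2% were called. The share that fell was near that of all genes. All 3 KO arrays lay above all 3 WT arrays in 3 genes and below them in 17, against 32% and 28.9% of all genes tested. The median difference was -0.07, against 0.01 over all genes. CK had the highest mean of the 3 genotypes in 35 of the 40 genes. In 23 of these WT lay between CK above and KO below. Neither order was counted over all genes, and most of these gaps between KO and WT were not called. Those of Psma7, Psmb1, Psmb7 and Psmd5 changed sign in some alternative settings. A moderated F-test over the 3 genotypes passed for 37 of the 40, against 76.1% of all genes.

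**Figure D1:**
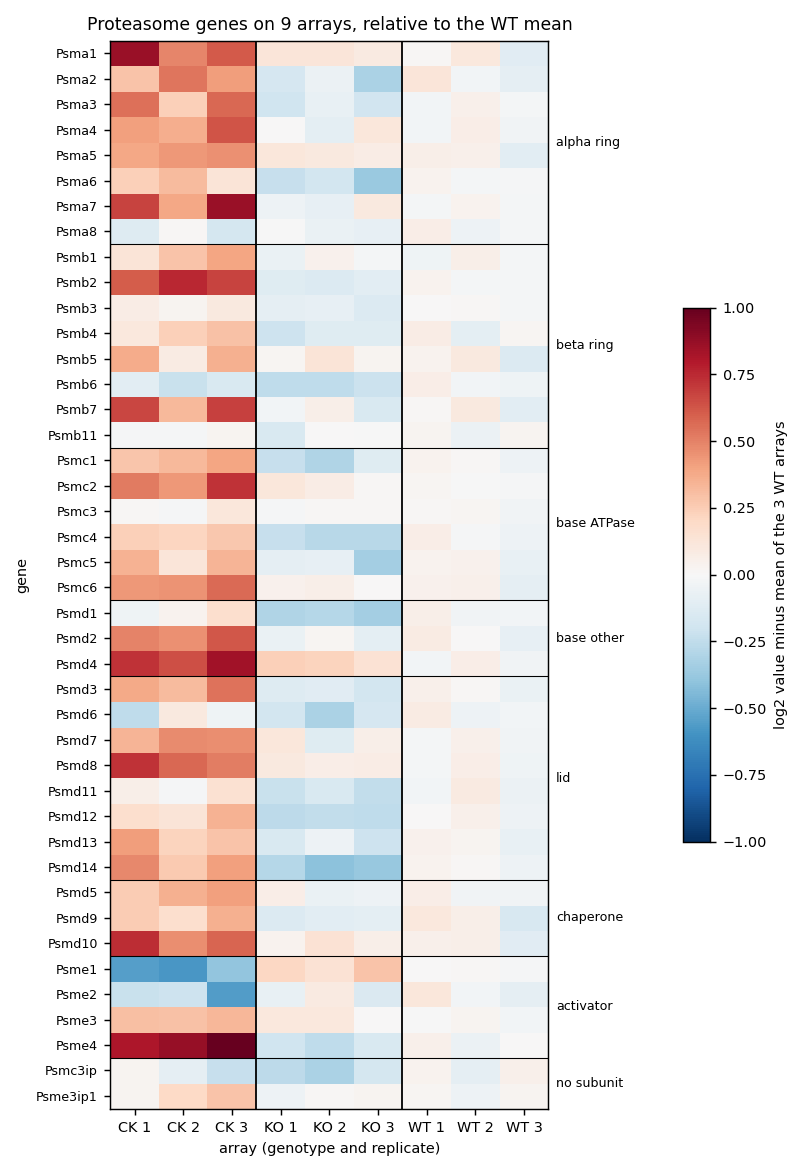
Log2 value of each of the 42 proteasome genes (rows, grouped by role) on the 9 arrays (columns, CK then KO then WT), minus the mean of the 3 WT arrays; red is higher, blue is lower, and the colour scale ends at 1 in either direction. The 3 CK columns are mostly red with Psme1 and Psme2 blue, and the KO columns are mostly pale or light blue.

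The shift was present on each CK array. Over the 40 tested genes the median difference from the WT mean was 0.32, 0.29 and 0.40 on the CK arrays, -0.08, -0.08 and -0.11 on the KO arrays and 0.04, 0.02 and -0.04 on the WT arrays. The third CK array was the highest of its group in 25 genes and the second the lowest in 23. The CK arrays also varied more among themselves: the median SD per gene was 0.107 in CK, 0.0547 in KO and 0.0587 in WT (n = 3 each), and the largest was 0.237, for Psma7 in CK. Over all genes tested the median SD was also largest in CK, at 0.0849, against 0.0673 in KO and 0.0709 in WT. Fibroblast markers such as Thy1 and the cartilage, macrophage, endothelial and neural markers differ between the same groups of arrays. Their part in the differences of the proteasome genes was not tested.

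**Figure D2:**
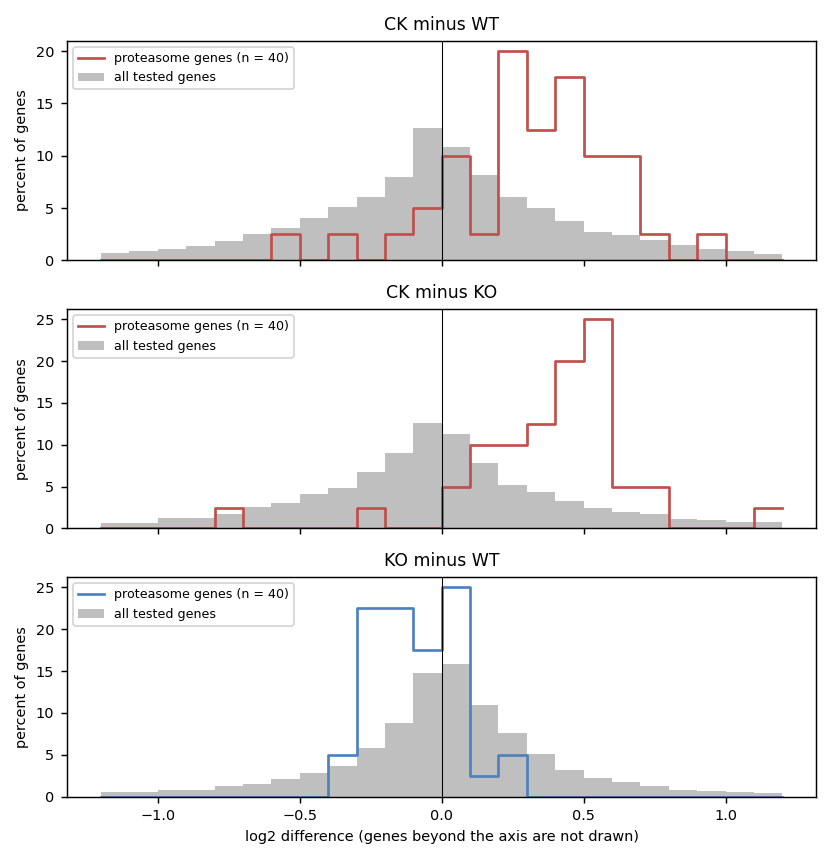
Histogram of log2 differences for CK minus WT, CK minus KO and KO minus WT (panels), as the percent of genes in each bin, for the 40 tested proteasome genes (coloured line) and all genes tested (grey bars). In both panels with CK most proteasome genes lie right of 0, while in KO minus WT they lie between -0.36 and 0.21.

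Promoters of 4 genes that moved in different ways are shown here, from 250 bases before to 50 after the transcription start, taken from RefSeq on mouse assembly GRCm38.p6 and written 5′ to 3′ on the gene's own strand. Psme4 and Psmd4 had the largest rises in CK relative to WT, Psme1 the largest fall, and Psmb6 was lower than WT in both mutants. Capitals mark the core of the antioxidant response element, TGACNNNGC, in Psme4 and Psmb6, and the core of the interferon-stimulated response element in Psmd4 and Psme1, on either strand.
Psme4, chr11:30771525-30771824 (+): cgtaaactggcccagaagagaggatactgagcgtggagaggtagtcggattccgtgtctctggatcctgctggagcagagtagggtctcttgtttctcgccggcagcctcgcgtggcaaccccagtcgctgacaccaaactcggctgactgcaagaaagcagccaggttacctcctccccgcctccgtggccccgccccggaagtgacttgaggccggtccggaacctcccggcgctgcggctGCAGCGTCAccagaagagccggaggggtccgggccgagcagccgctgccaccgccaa
Psmd4, chr3:95042565-95042864 (-): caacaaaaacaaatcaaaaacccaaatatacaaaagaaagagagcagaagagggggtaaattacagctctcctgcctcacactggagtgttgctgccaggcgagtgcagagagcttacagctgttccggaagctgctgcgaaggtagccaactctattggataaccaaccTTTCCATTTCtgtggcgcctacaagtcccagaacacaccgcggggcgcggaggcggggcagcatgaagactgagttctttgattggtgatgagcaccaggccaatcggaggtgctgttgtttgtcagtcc
Psme1, chr14:55578244-55578543 (+): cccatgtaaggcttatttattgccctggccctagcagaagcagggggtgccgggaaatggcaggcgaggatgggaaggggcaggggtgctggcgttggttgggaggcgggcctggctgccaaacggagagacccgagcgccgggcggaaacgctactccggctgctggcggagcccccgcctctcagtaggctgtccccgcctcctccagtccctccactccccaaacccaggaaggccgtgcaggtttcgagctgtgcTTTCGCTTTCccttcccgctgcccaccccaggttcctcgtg
Psmb6, chr11:70525107-70525406 (+): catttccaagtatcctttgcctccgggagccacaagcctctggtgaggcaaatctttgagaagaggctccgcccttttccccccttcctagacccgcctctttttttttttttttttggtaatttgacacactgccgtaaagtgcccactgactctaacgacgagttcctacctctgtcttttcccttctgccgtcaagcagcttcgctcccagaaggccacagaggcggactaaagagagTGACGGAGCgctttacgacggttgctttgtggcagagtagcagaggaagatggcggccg

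With the start base as 0, the match in Psme4 began at -7 and lay on the minus strand, and that in Psmb6 began at -9 on the plus strand. The matches in Psmd4, at -80, and Psme1, at 9, both lay on the minus strand. Windows were at hand for 35 of the 42 genes. The antioxidant core, to which the proteasome gene activator NRF1 and the stress factor NRF2 bind, occurred in 6 of the 35, or 17.1%, against 14% of 27025 genes and 16.6% of 9547 tested genes with a window. These 6 were Psmb5, Psmb6, Psmc6, Psmd9, Psmd12 and Psme4. The interferon core occurred in 4, Psmb3, Psmd4, Psmd9 and Psme1, or 11.4%, against 3.36% of tested genes. Among 4 further motifs searched on both strands, the ETS core CGGAAG was in 62.9% of the 35 against 34.3% of tested genes, the Sp1 box GGGCGG in 62.9% against 70.1%, the NF-Y box CCAAT in 42.9% against 42.7% and the E-box CACGTG in 11.4% against 11.9%. Of the 26 genes with a window that rose in CK relative to WT, 5 held the antioxidant core, against 1 of the other 9. The interferon core was in 2 of the 26 and 2 of the 9. The ETS core and the Sp1 box were each in 16 and 6, the NF-Y box in 12 and 3 and the E-box in 4 and 0. The other 9 include Psmb11, which failed the filter, and these splits were not tested. A match describes letters in this window and not binding.

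All 7 tested alpha ring genes rose in CK relative to WT, with a median difference of 0.45, and all 7 rose relative to KO, with a median of 0.54. Psma1 was 11.93, 11.55 and 11.68 on the CK arrays, 11.19, 11.19 and 11.16 on the KO arrays and 11.08, 11.18 and 10.95 on the WT arrays. Its CK arrays stood above all others while KO and WT overlapped, with a CK minus WT difference of 0.65 ± 0.09 (SE, limma adjusted p = 0.000112). Psma7 was 10.91, 10.62 and 11.09 in CK, 10.18, 10.15 and 10.33 in KO and 10.21, 10.27 and 10.21 in WT, a difference of 0.64 ± 0.10 from WT (adjusted p = 0.00029) and of 0.65 from KO (adjusted p = 0.000259). Psma3 was 11.63, 11.32 and 11.66 in CK, 10.88, 11.00 and 10.88 in KO and 11.05, 11.13 and 11.06 in WT. In Psma3, too, the CK arrays stood apart, 0.61 above KO (adjusted p = 0.000113) and 0.45 above WT. Psma6 was the only alpha gene called between KO and WT. It was 11.85, 11.93 and 11.75 in CK, 11.39, 11.43 and 11.24 in KO and 11.65, 11.59 and 11.60 in WT, with no overlap between any of the groups. KO lay 0.26 below WT (adjusted p = 0.00714) and CK 0.23 above it (adjusted p = 0.0117). The remaining 3, Psma2, Psma4 and Psma5, differed from WT by 0.41 to 0.47 in CK.

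The beta ring was less even, with 5 of 7 tested genes higher and 1 lower in CK than in WT (median difference 0.27). Psmb2, a subunit without a proteolytic site, was 12.80, 12.95 and 12.87 in CK, 12.08, 12.06 and 12.09 in KO and 12.24, 12.18 and 12.18 in WT. It rose 1.60-fold in CK relative to WT (adjusted p = 1.35e-06) and 1.74-fold relative to KO (adjusted p = 3.34e-07). The 3 catalytic subunits went different ways. Psmb7, with the trypsin-like site, was 10.76, 10.41 and 10.77 in CK, 10.06, 10.15 and 9.94 in KO and 10.10, 10.18 and 9.98 in WT, and rose by 0.56 ± 0.10 relative to WT (adjusted p = 0.00062). Psmb5, with the chymotrypsin-like site, was 13.14, 12.85 and 13.12 in CK, 12.79, 12.89 and 12.80 in KO and 12.80, 12.87 and 12.63 in WT. Its second CK array lay within the range of KO and WT, and its rise of 0.27 ± 0.09 relative to WT (adjusted p = 0.0209) was not called without CK array 1, CK array 3 or WT array 3 (adjusted p = 0.0787, 0.073 and 0.081). Psmb6, with the caspase-like site, was 11.23, 11.12 and 11.18 in CK, 11.09, 11.08 and 11.13 in KO and 11.41, 11.31 and 11.29 in WT. Both mutants lay below all WT arrays in this gene. The fall in KO was 0.24 ± 0.05 (adjusted p = 0.0037), and that in CK 0.16 ± 0.05 (adjusted p = 0.0238), which was lost without CK array 2 or WT array 1 (adjusted p = 0.0778 and 0.0902). Psmb4 rose by 0.21 in CK relative to WT (adjusted p = 0.0165), a call lost without CK array 3 or WT array 2 (adjusted p = 0.0592 and 0.0698). Psmb3 was 13.17 to 13.24 in CK, 13.01 to 13.06 in KO and 13.13 to 13.15 in WT. It differed by 0.07 between CK and WT, which was not called, and rose by 0.17 relative to KO (adjusted p = 0.0104). Its difference of -0.10 between KO and WT was not called (adjusted p = 0.1), while that of a second probe set of Psmb3, -0.18, was (adjusted p = 0.0197).

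**Figure D3:**
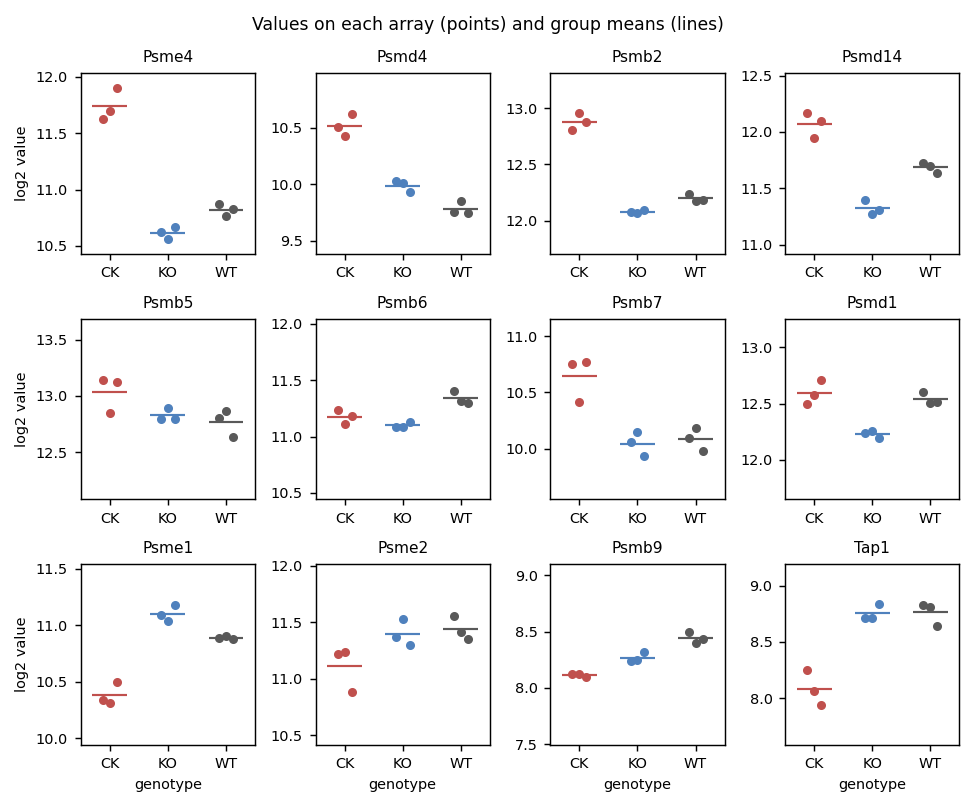
Log2 values (vertical axis) of 10 proteasome genes, Psmb9 and Tap1 on each array (points) by genotype, with group means as lines; each panel spans the same 1.6 log2 units but has its own centre, and replicates have no order. CK stands above KO and WT in Psme4, Psmd4, Psmb2, Psmd14 and Psmb7 and below them in Psme1, Psmb9 and Tap1.

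In the 19S base, 5 of the 6 ATPase genes rose in CK relative to WT (median 0.30) and the same number relative to KO (median 0.47). Psmc3 was the exception, at 9.97 to 10.09 in CK, 9.96 to 9.99 in KO and 9.95 to 10.00 in WT. Its 95% interval for CK minus WT was -0.08 to 0.15. The same value, 9.98881, recurred in Psmc3 on CK array 1, KO arrays 2 and 3 and WT array 1. The origin of this repeat was not tested. Psmc4 was 11.23, 11.21 and 11.27 in CK, 10.76, 10.71 and 10.71 in KO and 11.06, 10.98 and 10.94 in WT. Its groups did not overlap, with CK 0.24 above WT (adjusted p = 0.00186) and KO 0.26 below it (adjusted p = 0.00141). Psmc1 was 10.89, 10.94 and 11.01 in CK, 10.38, 10.30 and 10.48 in KO and 10.64, 10.62 and 10.56 in WT, in the same order. Its fall of 0.22 in KO (adjusted p = 0.0119) was lost without KO array 2 (adjusted p = 0.0534), and a dimmer probe set of Psmc1 was not called there (adjusted p = 0.365). Psmc2 and Psmc6 rose by 0.56 and 0.49 in CK relative to WT. The rise of 0.27 in Psmc5 (adjusted p = 0.0195) was lost without CK array 1, CK array 3 or WT array 3 (adjusted p = 0.0698, 0.066 and 0.0661).

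Psmd4, the ubiquitin receptor of the base, was the 1 gene called higher in all 3 comparisons. It was 10.51, 10.43 and 10.62 in CK, 10.02, 10.01 and 9.93 in KO and 9.76, 9.85 and 9.75 in WT. The genotypes formed 3 separate groups, with CK 1.66-fold above WT (log2 0.73 ± 0.06, adjusted p = 2.61e-06) and 0.53 above KO (adjusted p = 2.91e-05). The rise of 0.20 in KO relative to WT (adjusted p = 0.02) was lost without KO array 1, KO array 2, WT array 1 or WT array 3 (adjusted p = 0.0731, 0.0612, 0.0635 and 0.0608). Psmd2, a scaffold that docks ubiquitin shuttles, rose by 0.52 in CK relative to WT (adjusted p = 4.41e-05). Psmd1, the other large scaffold, was 12.50, 12.58 and 12.71 in CK, 12.24, 12.26 and 12.20 in KO and 12.60, 12.50 and 12.52 in WT. CK and WT overlapped in Psmd1 and KO lay below both, 0.31 below WT (adjusted p = 0.00194) and 0.36 below CK (adjusted p = 0.000475).

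Of the 8 lid genes with a Psmd symbol, 6 rose in CK relative to WT (median 0.35) and 7 relative to KO (median 0.46). In KO relative to WT, 3 of the 8 fell (median -0.17), or 37.5%, against 24.6% of all genes tested. Psmd14, the lid's deubiquitinating enzyme, was 12.16, 11.95 and 12.10 in CK, 11.40, 11.28 and 11.30 in KO and 11.72, 11.70 and 11.64 in WT. It had the largest fall of the 40 in KO relative to WT, 0.36 ± 0.07 (adjusted p = 0.00104), and rose by 0.38 in CK relative to WT (adjusted p = 0.000468) and by 0.74 relative to KO (adjusted p = 3.35e-06). Psmd12 was 11.04, 11.00 and 11.22 in CK, 10.61, 10.63 and 10.62 in KO and 10.87, 10.92 and 10.82 in WT, again with 3 separate groups. It rose by 0.22 in CK (adjusted p = 0.0118) and fell by 0.25 in KO (adjusted p = 0.00655), both relative to WT. Psmd8 had the largest lid rise relative to WT, 0.60 (adjusted p = 1.1e-05), and Psmd3, Psmd7 and Psmd13 rose by 0.31 to 0.43. Psmd11 was 11.30 to 11.47 in CK, 11.07 to 11.16 in KO and 11.26 to 11.41 in WT, so that KO lay below both. Its fall of 0.21 in KO (adjusted p = 0.0189) was lost without KO array 1, KO array 3 or WT array 2 (adjusted p = 0.0592, 0.0555 and 0.077). Psmd6 passed in no comparison, with -0.07 for CK minus WT and -0.22 for KO minus WT (adjusted p = 0.535 and 0.0538).

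**Figure D4:**
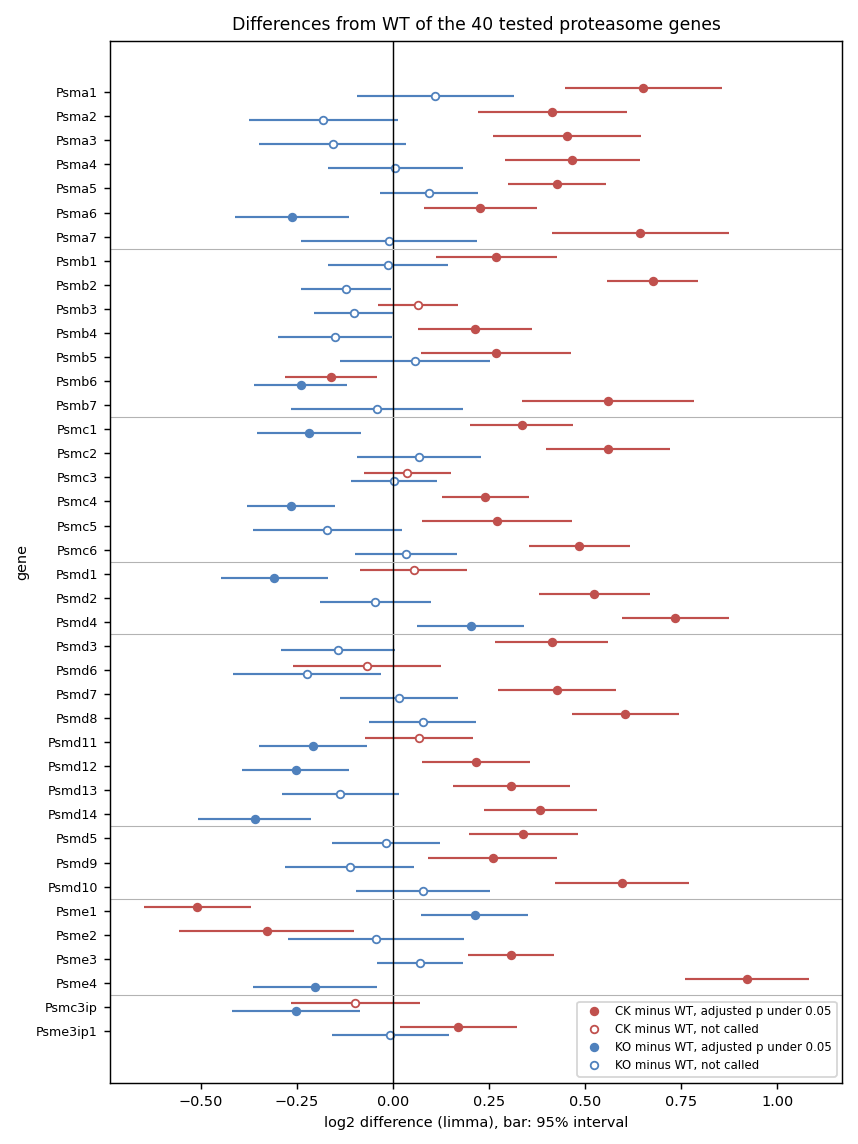
Log2 difference from WT of each of the 40 tested genes (rows, by role) in CK (red) and KO (blue), from limma, with 95% intervals as bars; filled points passed an adjusted p of 0.05. Both differences use the same WT arrays. Most red points lie right of 0, while most blue points lie near or left of it.

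Together, of the 31 tested core and regulator genes 25 rose and 1, Psmb6, fell in CK relative to WT (median 0.38), and 27 rose relative to KO (median 0.47). In KO, 1 rose and 8 fell relative to WT (median -0.12), or 3.2% and 25.8%, against 26.6% and 24.6% of all genes tested. The share that fell was again near that of all genes. The 3 chaperones that assemble the base also rose in CK: Psmd10 by 0.60, Psmd5 by 0.34 and Psmd9 by 0.26 relative to WT (adjusted p = 6.65e-05, 0.000809 and 0.0116). Between KO and WT limma called 0 of the 3, and 0 had an unadjusted p under 0.05.

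The activators split into 2 that rose and 2 that fell in CK. Psme4 encodes PA200, a large nuclear cap of the core. It was 11.63, 11.69 and 11.90 in CK, 10.62, 10.56 and 10.67 in KO and 10.87, 10.76 and 10.82 in WT. This was the largest rise of the 40 in both comparisons with CK, 1.89-fold over WT (log2 0.92 ± 0.07, adjusted p = 1.45e-06) and 2.18-fold over KO (log2 1.12, adjusted p = 2.75e-07). Psme4 fell by 0.20 in KO relative to WT (adjusted p = 0.0391), a call lost without KO array 1, KO array 2, WT array 1 or WT array 3 (adjusted p = 0.0875, 0.122, 0.121 and 0.0829). Psme3, which encodes the nuclear PA28 gamma ring, was 12.15, 12.15 and 12.19 in CK, 11.96, 11.96 and 11.86 in KO and 11.86, 11.88 and 11.83 in WT. Its CK arrays stood above the overlapping KO and WT arrays, 0.31 above WT (adjusted p = 0.000334).

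Psme1 and Psme2 encode the alpha and beta chains of PA28, the interferon-inducible cap linked to antigen processing. Psme1 was 10.34, 10.31 and 10.49 in CK, 11.10, 11.04 and 11.18 in KO and 10.89, 10.90 and 10.88 in WT. Its groups did not overlap, with CK lowest and KO highest, the reverse of the order of means in the 23 genes above. It fell by 0.51 ± 0.06 in CK relative to WT (1.42-fold lower, adjusted p = 4.13e-05) and by 0.72 relative to KO (adjusted p = 2.69e-06). The rise of 0.21 in KO relative to WT (adjusted p = 0.0154) was lost without KO array 3 (adjusted p = 0.0542). Psme2 was 11.22, 11.24 and 10.88 in CK, 11.37, 11.53 and 11.30 in KO and 11.55, 11.41 and 11.35 in WT, with the third CK array lowest. It fell by 0.33 in CK relative to WT (adjusted p = 0.0169), lost without CK array 3 or WT array 1 (adjusted p = 0.053 and 0.0706), and by 0.29 relative to KO (adjusted p = 0.0325), lost without CK array 3, KO array 1 or KO array 2 (adjusted p = 0.111, 0.0592 and 0.12). A probe set annotated to both Psme2b and Psme2 was not tested. Its mean was not lower in CK than in WT, at 10.15 against 10.08, with 10.23 in KO.

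Of the inducible catalytic subunits, which the rule leaves out, neither of the 2 tested genes rose in CK. Psmb9 was 8.12, 8.12 and 8.10 in CK, 8.24, 8.24 and 8.32 in KO and 8.49, 8.40 and 8.43 in WT. It was lowest in CK and highest in WT, with falls of 0.33 in CK (adjusted p = 0.000189) and 0.18 in KO (adjusted p = 0.0124) relative to WT. Psmb10 fell by 0.48 in CK relative to KO (adjusted p = 0.000968) and rose by 0.37 in KO relative to WT (adjusted p = 0.00688). Psmb8 was under the filter, at 6.64 to 6.90 in CK, 6.85 to 6.93 in KO and 6.97 to 7.15 in WT. Of 9 tested genes of an interferon and antigen processing list, 1 rose and 3 fell in CK relative to WT. These are 11.1% and 33.3%, against 30.7% and 32.1% of all genes tested, so the share that fell was near that of all genes. Relative to KO, 5 rose and 3 fell in CK, or 55.6% and 33.3%, against 29.5% and 32.7%. Relative to WT, the peptide transporter genes Tap1 and Tap2 fell by 0.68 and 0.69 in CK and their partner Tapbp by 0.46 (adjusted p = 4.6e-05, 3.7e-06 and 0.00116). The antiviral gene Ifit3 rose by 1.29 in CK relative to WT (adjusted p = 5.61e-05).

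Genes that work with the proteasome but have other symbols were mixed. Among 4 tested chaperones that assemble the core, Pomp, Psmg1 and Psmg4 rose in CK relative to WT by 0.41, 0.30 and 0.51 (adjusted p = 0.000298, 0.0132 and 0.000115). Psmg2 fell by 0.53 (adjusted p = 0.00018), so that 75% rose and 25% fell, against 30.7% and 32.1% of all genes tested. Of 8 tested genes for other subunits and bound proteins, 3 rose and 1 fell in CK relative to WT, or 37.5% and 12.5%. Those that rose were the deubiquitinase Uchl5 by 0.57, the scaffold Ecpas by 0.51 and Akirin2, which aids nuclear import of proteasomes, by 0.74 (adjusted p = 0.00048, 1.63e-05 and 7.97e-06). All 3 also rose in KO relative to WT, by 0.31, 0.77 and 0.67 (adjusted p = 0.0233, 9.31e-07 and 2.44e-05). The small lid subunit Sem1 fell in CK by 0.44 relative to WT (adjusted p = 0.00695). The inhibitor Psmf1 and the deubiquitinase Usp14 differed from WT by 0.02 and 0.03 in CK (adjusted p = 0.73 and 0.578).

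Of 7 tested genes around NRF1, the factor that induces proteasome genes when proteasome activity is low, 2 rose and 2 fell in CK relative to WT. Each is 28.6% of the 7, near the 30.7% higher and 32.1% lower among all genes tested. In KO relative to WT 2 rose and 3 fell, or 28.6% and 42.9%, against 26.6% and 24.6%. Nfe2l1, which encodes NRF1, was 12.15, 12.21 and 12.28 in CK, 12.17, 12.17 and 12.09 in KO and 12.44, 12.32 and 12.24 in WT. CK overlapped both other genotypes, and CK minus WT was -0.12 (adjusted p = 0.138). The KO arrays lay below all WT arrays, and KO minus WT was -0.19 (adjusted p = 0.0326). Ngly1, the glycanase that matures NRF1, fell by 0.73 in CK relative to WT (adjusted p = 9.58e-05). Vcp, the ATPase that extracts NRF1 from the membrane, rose by 0.41 in CK relative to WT (adjusted p = 0.000117). Nfe2l2, which encodes NRF2, fell by 0.20 in CK and by 1.01 in KO relative to WT (adjusted p = 0.00932 and 1.26e-07). Mafk rose by 0.35 in CK and by 0.41 in KO relative to WT (adjusted p = 0.000887 and 0.000405). For Mafg KO minus WT was -0.29 (adjusted p = 0.00311), and CK minus WT was -0.03 (adjusted p = 0.663). Maff, whose mean was below the filter, averaged 7.79 in CK, 6.77 in KO and 6.99 in WT. Among 4 tested shuttle factors that carry ubiquitinated proteins, Rad23b rose by 1.09 and Ubqln1 by 0.49 and Ubqln2 fell by 0.21 in CK relative to WT (adjusted p = 1.11e-07, 1.27e-05 and 0.00738). The rises are 50% of the 4 shuttle factors and the fall is 25%. Rad23b also rose in KO relative to WT, by 0.73 (adjusted p = 3.25e-06).

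The 2 genes that match the prefix without being subunits did not share the larger rises. Psmc3ip lay near the filter, at 7.58, 7.46 and 7.31 in CK, 7.28, 7.23 and 7.37 in KO and 7.58, 7.46 and 7.60 in WT. Its fall of 0.25 in KO relative to WT (adjusted p = 0.0167) was lost without KO array 1, KO array 2, WT array 1 or WT array 3 (adjusted p = 0.0505, 0.0634, 0.0573 and 0.0556). Psme3ip1 was 10.89, 11.06 and 11.15 in CK, 10.81, 10.87 and 10.89 in KO and 10.88, 10.81 and 10.89 in WT. It held the same value, 10.8881, on CK array 1, KO array 3 and WT array 3. Its rises of 0.17 relative to WT and 0.18 relative to KO lay just inside the threshold (adjusted p = 0.0498 and 0.0439) and were lost without most single arrays, with adjusted p up to 0.171 relative to WT and 0.152 relative to KO. Without both, 30 of 38 genes rose and 3 fell in CK relative to WT, 32 rose and 2 fell relative to KO, and 2 rose and 9 fell in KO relative to WT.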

How the data were processed

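Per the submitters' processing notes, the authors used RMA and the affy package (versions not given in the sources used here). Per the deposited table, 34760 probe sets have log2 expression values without any detection call, and a low one can be background signal. The decimal mark was missing in the deposited file, where each cell held 10 to 15 digits and so another kind of number. If the mark is set behind the first digit, cells that begin with 1 go up to 1.444 and the rest start at 4.28. Cells that begin with 1 were therefore taken as 10 or higher, and the restored log2 values run from 4.28 to 14.4.

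The platform annotation gives 21640 probe sets a single symbol. The brightest of them stood for its gene, and genes whose mean reached the 40th percentile were tested. All 9 arrays entered limma 3.58.1 (R 4.3.3) with 1 coefficient per genotype and moderated variances, on 6 residual plus 4.1 prior degrees of freedom, after a test on simulated data. Calls needed an adjusted p (Benjamini-Hochberg over all 11962 genes) below 0.05. An exact permutation test of 3 arrays against 3 cannot go below 0.1. The members and gene lists were chosen with earlier results of these data known. Genes with values on every array were the 5 largest called rises and falls per comparison, those called in all 3 comparisons, and the catalytic subunits. Psmc3ip and Psme3ip1, shown apart, and Psme3, Psmb9, Nfe2l1, Cct6a and Cops5 were added after their values were seen. Alternatives covered the dim filter, probe set choice, scaling, variance model, array weights, a replicate block, the arrays fitted, the threshold and leaving out each array. Promoters came from a RefSeq table.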

Additional observations from a re-analysis of the deposited data

How the results depend on the processing

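The number of proteasome genes higher in CK, 31 relative to WT and 33 relative to KO, stayed within 1.5 times under every alternative tried, at 24 to 31 and 31 to 35, and no called difference changed sign. Of the differences that were not called, 14 changed sign under at least 1 alternative, such as Psmd6 in CK relative to WT, -0.07 with all arrays and 0.03 without CK array 1. The small counts moved more. Leaving out single arrays gave 1 to 2 genes higher and 7 to 12 lower in KO than in WT, 1 to 3 lower in CK than in WT and 1 to 2 lower in CK than in KO. The single gene lower in CK than in WT came without the first WT array. At an adjusted p of 0.01, limma called 0 genes higher (2 at an unadjusted p under 0.05) and 6 lower in KO than in WT, 1 lower in CK than in WT and 1 lower in CK than in KO. Array weights, from 0.473 to 6.01 with the first KO array highest, gave 19 genes lower in KO than in WT. Calls over all genes in this comparison, higher and lower together, went up too, from 51.2% to 62.6%. The share of all genes called lower with array weights was not counted, so the 19 stand without a like share. With only the 6 arrays of KO and WT, 13 genes were lower in KO than in WT. Without the dim filter, or with only the 6 arrays of both genotypes, 1 gene was lower in CK than in KO. Psme2 was the gene no longer called there (adjusted p = 0.0544 and 0.0543), and Psme4 was not called between KO and WT without the filter (adjusted p = 0.0506). Of the calls on single genes, 28 of 34 for CK versus WT, 33 of 35 for CK versus KO and 6 of 12 for KO versus WT held without each array in turn. The labels do not state whether equal replicate numbers pair the arrays. Same-numbered arrays had correlations of deviations from -0.204 to -0.0315 for CK with WT, -0.303 to 0.0515 for CK with KO and 0.0499 to 0.361 for KO with WT. In 4 of 18 cases an array correlated best with its own number. With 3 arrays per genotype these values cannot exclude a pairing, and those for KO with WT were all positive. A fit with the replicate number as a block called 30 genes higher and 3 lower in CK than in WT, 33 and 2 in CK than in KO and 2 and 10 in KO than in WT, with 35 by the F-test; Psme3ip1 was no longer called between CK and WT (adjusted p = 0.0501). Averaging all probe sets of a gene ended the call of Psmc1 between KO and WT (adjusted p = 0.0741) and made one for Psmb3 (adjusted p = 0.0361). Precision is limited by having 3 arrays per genotype, and quantile normalization hides a change in total RNA per cell.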

Other observations

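Values of 2 other multi-subunit machines in the same fibroblasts follow, and no test set them against the proteasome genes. In CCT, the chaperonin that folds actin and tubulin, 5 of 8 tested genes rose in CK relative to WT (median log2 difference 0.29). That is 62.5%, against 30.7% of all genes tested. In KO relative to WT 6 of 8 rose (median 0.29), or 75%, against 26.6%. In CK relative to KO 1 rose and 1 fell, 12.5% each, against 29.5% and 32.7%. Cct6a had the largest rise, at 12.44, 12.30 and 12.34 in CK, 12.07, 12.06 and 12.02 in KO and 11.72, 11.80 and 11.62 in WT. It stood highest in CK and lowest in WT, with differences from WT of 0.65 in CK and 0.34 in KO (limma adjusted p = 5.51e-06 and 0.000867).

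The COP9 signalosome, which removes the ubiquitin-like protein NEDD8 from ubiquitin ligases and resembles the proteasome lid, had 1 of 9 tested genes higher and 3 lower in CK than in WT. These are 11.1% and 33.3%, against 30.7% and 32.1% of all genes tested. The share that fell was near that of all genes. Cops5, its catalytic subunit, was 9.14, 9.22 and 9.24 in CK, 9.69, 9.74 and 9.81 in KO and 9.56, 9.60 and 9.46 in WT. CK lay below both other genotypes, 0.34 below WT and 0.55 below KO (limma adjusted p = 0.000433 and 1.33e-05). Cops6 rose by 0.33 in CK relative to WT (adjusted p = 0.000172).

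A probe set annotated to both Psme2b and Psme2, used for neither gene, averaged 10.15 in CK, 10.23 in KO and 10.08 in WT.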
